A study of Mus musculus with 27 samples.

Results

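Vasoactive intestinal peptide (VIP) neurons of the suprachiasmatic nucleus (SCN) were set against cholecystokinin (CCK) neurons of the same nucleus by their mature microRNAs (miRNAs). The 4 libraries, VIP replicates 1 and 2 and CCK replicates 1 and 2, were taken by their titles from the 27 small-RNA libraries of the series. All came from C57BL/6 mice, and no genotype, driver line, treatment, time of day, age or sex is named for them in the labels. Vasopressin (AVP) neurons, with 2 libraries, shared the model, and their levels are given for some of the miRNAs. For some, 2 libraries of whole SCN tissue are given as context without a test. Of 844 miRNAs listed anywhere in the series, 432 were listed in at least 1 of the 4 libraries. The 273 with a deposited value of 100 or more in at least 2 of the 4 were tested, and 159 were not. That minimum equals 10 CPM (counts per 1000000 reads), the unit of every level below.

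The SCN is the brain's central circadian clock. Its VIP neurons lie in the ventral core, receive input from the retina and help to keep the other clock cells in step, while CCK neurons are another peptide-defined group. A miRNA is a short RNA cut from either arm of a hairpin precursor (the 5p or the 3p arm). It pairs with messenger RNAs mainly through its seed (bases 2 to 8) and lowers their translation or stability, so miRNAs with the same seed can share targets, and miRNAs of one hairpin or one cluster start from the same transcript.

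The sequences of the miRNAs on which the results turn are given from RefSeq (GRCm38.p6), 5′ to 3′, with the seed in capitals. The first set holds miR-27b-3p and miR-27a-3p, which share a seed, and miR-24-3p, which is made beside them.
miR-27b-3p: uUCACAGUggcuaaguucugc
miR-27a-3p: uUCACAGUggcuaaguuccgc
miR-24-3p: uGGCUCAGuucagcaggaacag
The second set holds miRNAs with the largest differences, including both arms of the miR-409 and miR-342 hairpins.
miR-154-3p: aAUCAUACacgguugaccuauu
miR-342-5p: aGGGGUGCuaucugugauugag
miR-342-3p: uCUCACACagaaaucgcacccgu
miR-204-5p: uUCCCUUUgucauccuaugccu
miR-128-3p: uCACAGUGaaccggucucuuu
miR-409-5p: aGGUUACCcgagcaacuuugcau
miR-409-3p: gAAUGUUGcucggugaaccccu
The third set shows members of one seed family that moved in opposite directions, and the leading abundant miRNAs.
let-7e-5p: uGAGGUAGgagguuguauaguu
let-7d-5p: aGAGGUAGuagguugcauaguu
let-7i-5p: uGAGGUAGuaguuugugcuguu
miR-30a-5p: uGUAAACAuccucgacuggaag
miR-30c-5p: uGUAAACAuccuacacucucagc
miR-30e-5p: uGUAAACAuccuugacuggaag
miR-125a-5p: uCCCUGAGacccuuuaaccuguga
miR-26a-5p: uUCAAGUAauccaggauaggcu

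The VIP libraries held about 2810000 and 2790000 reads and the CCK libraries about 470000 and 490000 reads, as estimated from the smallest step between deposited values. Depth and neuron type therefore cannot be told apart. A miRNA at 0 could still reach 1.07 and 1.08 CPM in the VIP libraries and 6.39 and 6.16 CPM in the CCK libraries (3 reads, counting error only). Replicates of one type differed by a median of 1.89-fold in VIP and 1.35-fold in CCK neurons over the 273 miRNAs, and 30 miRNAs in each type were listed in one replicate and not in the other. The labels do not say that replicates came from separate animals, so p-values measure only the spread between these libraries. The peptides that name the neurons are made from messenger RNAs, so no neuron type could be checked by its own marker. The neuronal miR-124-3p stood at 13877 and 10700 CPM in VIP and 9983 and 11436 CPM in CCK libraries, which overlap (limma adjusted p = 0.668). It was at 3679 and 2378 CPM in AVP libraries and at 21515 and 24162 CPM in whole SCN tissue. Other neuronal miRNAs were split. Of 20 tested, 2 were higher in VIP, 4 lower and 14 not called, against 8.79% higher and 23.4% lower among all tested miRNAs. Neuron content was thus not settled by miR-124-3p. In these bulk libraries fewer cells that make a miRNA and fewer copies per cell cannot be told apart. The labels give one collection text for all samples, in which tissue was removed and frozen, and do not say how a neuron type was separated from it.

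VIP and CCK neurons differed in 88 of the 273 miRNAs, 32.2% of those tested (limma, Benjamini-Hochberg adjusted p under 0.05, two-sided). Of these, 24 (8.79%) were higher in VIP and 64 (23.4%) lower, and 21 and 60 of them differed by more than 2-fold. Of the 24, 19 were also called higher in VIP than in AVP, and 3 others higher in AVP than in CCK. Of the 64, 37 were called lower in VIP than in AVP, and 16 others lower in AVP than in CCK. Over all 273, VIP against AVP gave 49 higher and 50 lower, and AVP against CCK 5 higher and 47 lower. These contrasts share libraries and are not independent. The 4 libraries separated by type, without overlap, for 187 miRNAs (68.5%), with both VIP libraries above both CCK libraries for 60 (22%) and below them for 127 (46.5%). With 2 libraries a type, an exact permutation test of 1 miRNA cannot go below p = 0.333. The split between directions depended on the scaling. The median log2 fold change of all tested miRNAs was -0.75. Scaling by the median ratio in place of the library total gave 44 higher and 35 lower. Its factors, by which levels are divided, differed by -0.82 (log2, VIP minus CCK), so it raised VIP against CCK. All 24 rises and 35 of the 64 falls kept their call under this scaling, and the losses among the miRNAs described in detail below are given with them.

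The minimum was met by VIP libraries alone for 10 miRNAs and by CCK libraries alone for 36. These had to differ to be tested at all. Every tested miRNA given below with less than 10 CPM in both libraries of one type is among them. The adjusted p of such a miRNA adds no support to its direction. Among the 168 that met the minimum in all 4 libraries, 16 were higher and 39 lower in VIP, with a median log2 fold change of -0.63. Just inside the minimum lay miR-191-3p, miR-741-3p and miR-376a-3p, whose second-highest value was 10.2, 10.2 and 10.6 CPM. Just outside lay miR-370-5p, miR-30c-1-3p and miR-871-3p at 9.6, 8.5 and 8.5 CPM. The number of calls rested on both CCK libraries, with 34 calls without CCK replicate 1, of which 32 were among the 88, and 33 without CCK replicate 2, of which 29 were. Without VIP replicate 1 there were 74, of which 63 were among the 88, and without VIP replicate 2 there were 70, of which 55 were. Where a library is left out, the remaining one of its type is taken to vary like the other types. Calls described below as lost were lost in such fits or under the scaling named, and the adjusted p stands beside them. Named calls lost when replicate number was added to the model are given in part at the end.

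**Figure D1:**
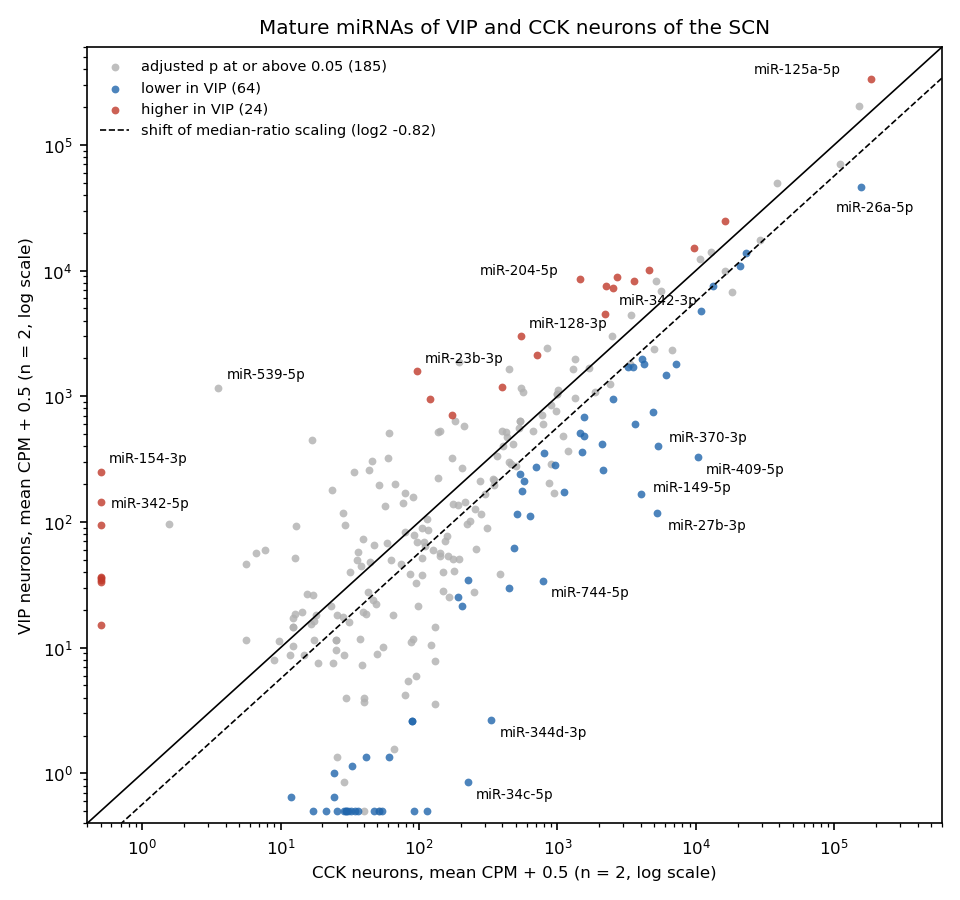
Mean level of each of the 273 tested miRNAs in VIP neurons (vertical axis) against CCK neurons (horizontal axis), in CPM + 0.5 on log scales, n = 2 libraries each. The solid line marks equal levels, and the dashed line marks levels that median-ratio scaling makes equal (log2 -0.82). In red are 24 points higher in VIP, in blue 64 lower and in grey the rest.

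Within the miR-23, miR-27 and miR-24 clusters, neighbouring miRNAs of one transcript differed in opposite directions. miR-23b and miR-27b lie on chromosome 13 (GRCm38, plus strand), at 63300484 to 63300557 in an intron and at 63300712 to 63300784 in an exon of the transcript 2010111I01Rik. miR-23b-3p stood at 1697 and 1461 CPM in VIP libraries, against 119 and 71.8 CPM in CCK libraries. miR-27b-3p, a broadly expressed miRNA linked in mouse liver to the clock gene Bmal1, stood at 87.5 and 146 CPM in VIP, against 4943 and 5505 CPM in CCK. The pair thus went opposite ways. miR-23b-3p was 16.5-fold higher (log2 fold change 4.09 ± 0.62 SE, adjusted p = 0.0119) and miR-27b-3p 44.8-fold lower in VIP (-5.53 ± 0.30, adjusted p = 0.000786). The call of miR-27b-3p held in every alternative fit, while that of miR-23b-3p was lost without any one of the 4 libraries (adjusted p = 0.0624 to 0.0982).

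The ratio of miR-23b-3p to miR-27b-3p was 19.4 and 10.02 in the VIP libraries, 0.0141 and 0.00637 in the AVP libraries and 0.0241 and 0.013 in the CCK libraries. It was 0.0369 and 0.04 in SCN tissue, so of these libraries only the VIP ones held more miR-23b-3p than miR-27b-3p. The seed partner miR-27a-3p, from chromosome 8, was at 1.7 and 2.5 CPM in VIP against 68.1 and 109 CPM in CCK. Tested through the CCK libraries alone, it had to be lower in VIP and adds no support to the fall of miR-27b-3p. miR-27a-3p fell 42.1-fold (adjusted p = 0.0209), a call lost without CCK replicate 1 or 2 and under quantile normalization (0.0612). miR-24-3p, which represses Per1 and Per2 in mouse cells, was at 337 and 383 CPM in VIP against 1168 and 1843 CPM in CCK. Its fall of 4.18-fold (log2 fold change -2.03 ± 0.28, adjusted p = 0.00972) held in every alternative fit. miR-23a-3p was low in both types, at 27.6 CPM or less in each of the 4 libraries, and did not pass (adjusted p = 0.949). In all, 1 of the 5 tested members of these clusters was higher and 3 lower, against 8.79% and 23.4% of all tested miRNAs.

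**Figure D2:**
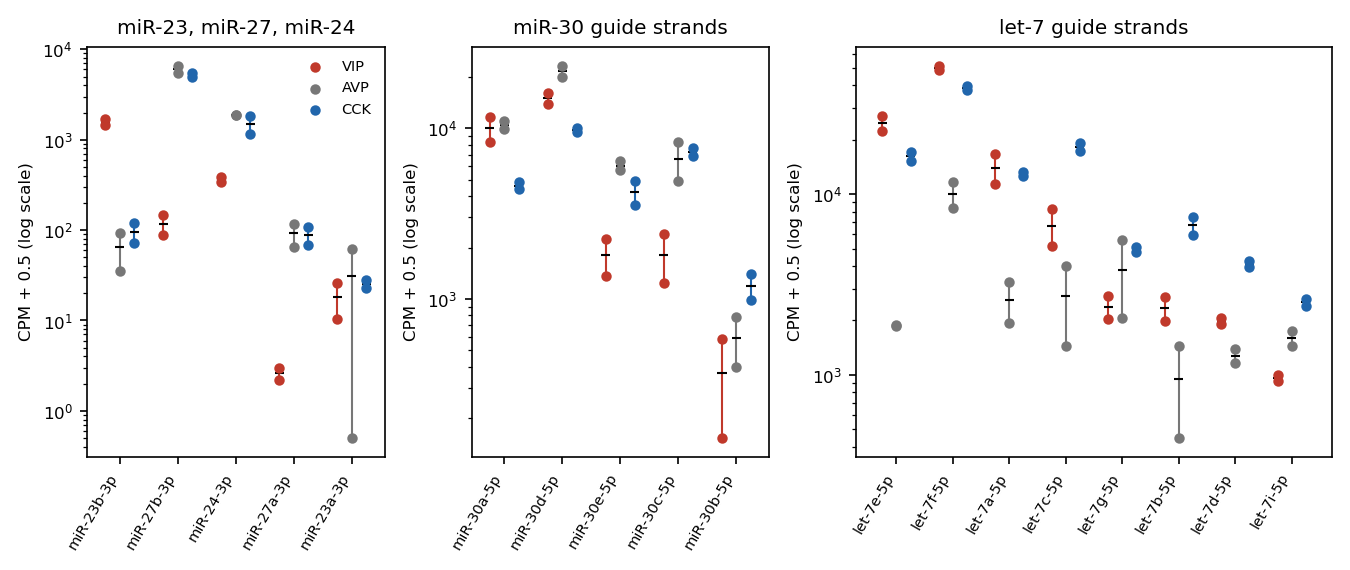
Levels in CPM + 0.5 (log scale) of 3 groups of miRNAs in VIP (red), AVP (grey) and CCK (blue) neurons, with 1 point per library and a bar at the mean (n = 2). miR-23b-3p is high and miR-27b-3p low in the VIP libraries alone, and members of the miR-30 and let-7 families lie on both sides of their CCK libraries.

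Several miRNAs were read in VIP neurons and not at all in either CCK library. miR-154-3p, from the imprinted Dlk1-Dio3 region, stood at 346 and 155 CPM in VIP against 0 and 0 CPM in CCK, at least 80-fold higher by the level that 3 reads over both CCK libraries allow. miR-342-5p, from an intron of Evl on chromosome 12 (108658620 to 108658718), stood at 188 and 101 CPM against 0 and 0 CPM, at least 46.1-fold higher. miR-135b-5p was at 157 and 29.8 CPM against 0 and 0 CPM, at least 29.7-fold higher, with VIP replicates that themselves lay far apart. All 3 were at 0 in both AVP libraries too. They were tested through the VIP libraries alone, so they had to differ, and their adjusted p-values of 0.000894, 0.000786 and 0.00326 add no support to that. The other arm of the miR-342 hairpin, miR-342-3p, which is abundant in brain and in immune cells, was at 7262 and 7762 CPM in VIP against 1933 and 2547 CPM in CCK. It was 3.35-fold higher (log2 fold change 1.76 ± 0.26, adjusted p = 0.0108), so both arms of this hairpin rose, though the 3p call was lost without any one library (0.0532 to 0.0852).

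miR-204-5p, made from an intron of Trpm3 on chromosome 19 (22750605 to 22750672) and best known from choroid plexus and retinal pigment epithelium, was the most abundant miRNA of the named rises whose call held in every alternative fit. It stood at 9453 and 7563 CPM in VIP, 76.4 and 81.6 CPM in AVP and 1255 and 1647 CPM in CCK libraries. The 3 types did not overlap, and VIP lay 5.86-fold above CCK (log2 fold change 2.56 ± 0.24, adjusted p = 0.00255). Whole SCN tissue held 7045 and 7910 CPM, a level near that of the VIP libraries. miR-128-3p, a brain-enriched miRNA that dampens neuronal excitability in mice, was at 3620 and 2369 CPM in VIP against 535 and 553 CPM in CCK. Its 5.51-fold rise (2.43 ± 0.58, adjusted p = 0.0379) was lost without any one library (0.103 to 0.199).

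Other rises past the threshold came from several chromosomes. miR-376b-5p, of the Dlk1-Dio3 region, was at 1170 and 729 CPM in VIP against 115 and 125 CPM in CCK, 7.90-fold higher (adjusted p = 0.0119). miR-92b-3p, from chromosome 3, was at 9092 and 8658 CPM against 3002 and 2403 CPM, 3.28-fold higher (adjusted p = 0.00666). AVP libraries held 8770 and 6581 CPM of miR-92b-3p, and VIP against AVP did not pass (limma adjusted p = 0.443). VIP and CCK libraries did not overlap for either miRNA, as for 68.5% of all tested miRNAs. miR-3099-3p, from an intron of the imprinted gene Usp29, was 2.97-fold higher, and miR-374b-5p, from an intron of the X-linked noncoding gene Ftx, 2.96-fold higher (adjusted p = 0.0391 and 0.0176). miR-361-5p, from an intron of Chm on the X chromosome, was 2.86-fold and miR-700-3p 4.11-fold higher (adjusted p = 0.0182 and 0.041). Without CCK replicate 2 the adjusted p was 0.0819 for miR-376b-5p, 0.0612 for miR-92b-3p, 0.0819 for miR-3099-3p, 0.0893 for miR-374b-5p, 0.0982 for miR-361-5p and 0.163 for miR-700-3p, so each of these calls was lost. Without CCK replicate 1 that of miR-92b-3p was 0.0437 and that of miR-3099-3p 0.0248, and the other 4 calls were lost (0.0852, 0.0872, 0.138 and 0.199). Without VIP replicate 1 or 2 the calls of miR-3099-3p (0.138 and 0.142), miR-361-5p (0.0851 and 0.0769) and miR-700-3p (0.0656 and 0.125) were lost.

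Not every large difference passed. miR-539-5p, again of the Dlk1-Dio3 region and chosen after its values were seen, stood at 1156 and 1183 CPM in VIP, 0 and 5.5 CPM in AVP and 0 and 6.1 CPM in CCK libraries. Tested through the VIP libraries alone, it had to be higher in VIP than in CCK. Both VIP values lay far above the rest, and the difference did not pass (log2 fold change 10.54 ± 2.94, adjusted p = 0.0548), though it did under median-ratio scaling and 5 other alternatives.

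**Figure D3:**
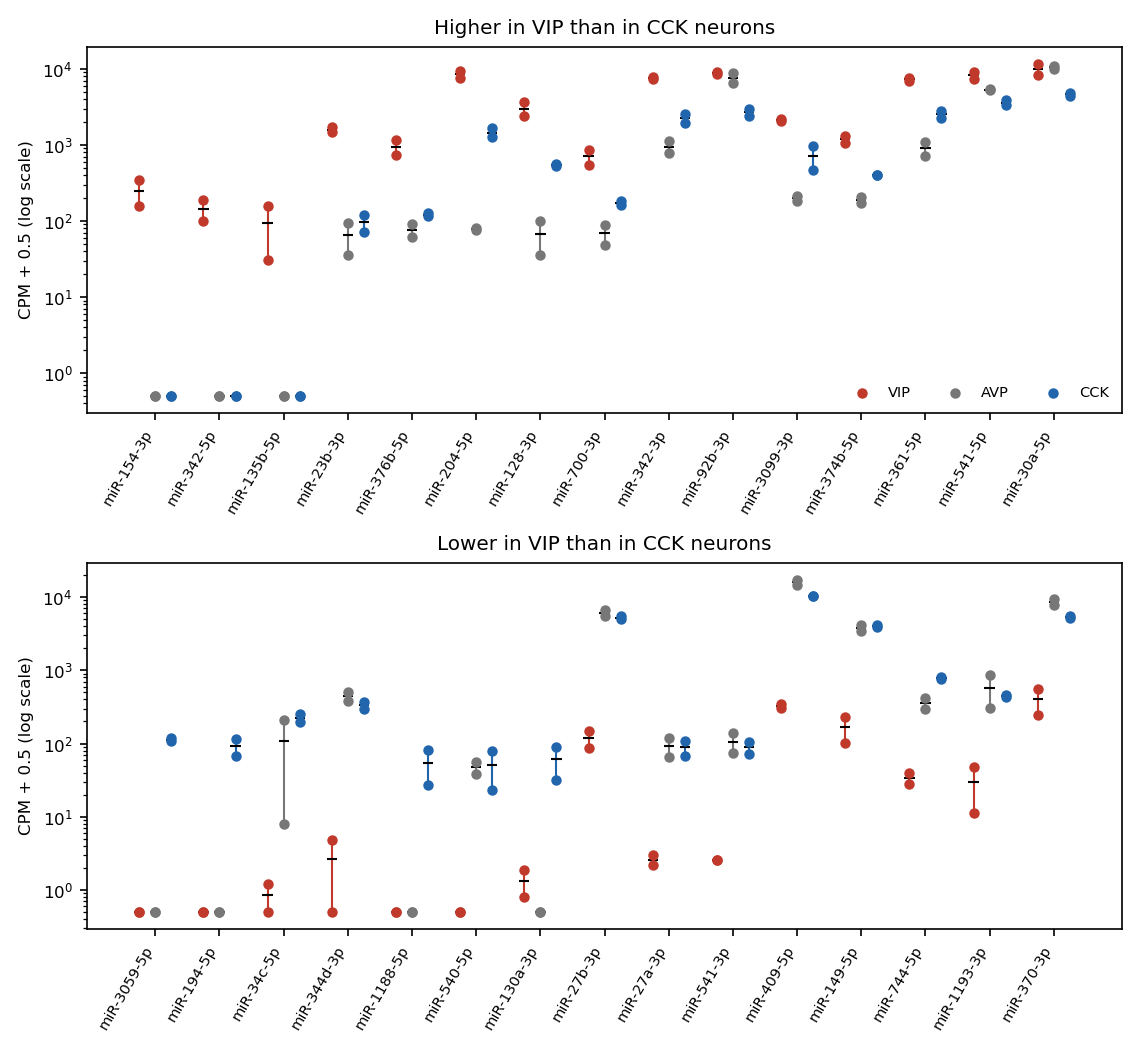
Levels in CPM + 0.5 (log scale) of the 15 largest rises (top) and the 15 largest falls (bottom) in VIP (red), AVP (grey) and CCK (blue) neurons. They were taken among miRNAs with an adjusted p under 0.05, no overlap of the types and a mean of at least 50 CPM in the higher type. Each point is 1 library and each bar a mean (n = 2), and points at the bottom of an axis were at 0 CPM.

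The smallest adjusted p of the 273 belonged to miR-409-5p, made in an intron of Mirg on chromosome 12 (109743158 to 109743236). It stood at 308 and 347 CPM in VIP against 10243 and 10316 CPM in CCK libraries, 31.4-fold lower (log2 fold change -4.97 ± 0.16, adjusted p = 0.000388), and the adjusted p stayed at or below 0.00333 in every alternative fit. miR-149-5p, from an intron of Gpc1, was at 231 and 101 CPM against 3874 and 4106 CPM, 24.1-fold lower (-4.71 ± 0.43, adjusted p = 0.00226). miR-744-5p, from an intron of Map2k4, was at 39.5 and 27.6 CPM against 767 and 797 CPM, 23.3-fold lower (-4.56 ± 0.41, adjusted p = 0.00209). These calls held in every alternative fit, and the VIP libraries of each lay far below both CCK libraries. AVP neurons held 14688 and 17274 CPM of miR-409-5p, 3472 and 4131 CPM of miR-149-5p and 295 and 415 CPM of miR-744-5p, in each case above both VIP libraries.

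At the low end were miRNAs read in CCK and not in VIP neurons, although the VIP libraries were the deeper ones. miR-3059-5p, from an intron of Mgat4c, was at 0 and 0 CPM in VIP against 109 and 117 CPM in CCK. That is at least 211-fold lower if counting error is the only error, as for the bounds that follow. miR-194-5p, which together with miR-192 represses Period genes in cultured cells, was at 0 and 0 CPM against 68.1 and 115 CPM, at least 171-fold lower. For miR-1188-5p (0 and 0 against 80.9 and 26.7 CPM) the bound was at least 100-fold lower and for miR-540-5p (0 and 0 against 78.8 and 22.5 CPM) at least 94.5-fold lower. The first 3 of these were also at 0 in both AVP libraries, whereas miR-540-5p was at 55.9 and 37.5 CPM there. All 4 were tested through the CCK libraries alone, so they had to differ, and their adjusted p-values, between 0.000786 and 0.00972, add no support to that.

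Close to 0 in VIP were miR-34c-5p, miR-344d-3p and miR-130a-3p. miR-34c-5p, abundant in ciliated epithelia, was at 0 and 0.7 CPM in VIP against 194 and 255 CPM in CCK (adjusted p = 0.0338), with AVP libraries at 7.4 and 208 CPM. Its partner in the same cluster, miR-34b-3p, was at 0 and 0 CPM against 51.1 and 12.3 CPM (adjusted p = 0.00326). miR-344d-3p was at 0 and 4.3 CPM against 371 and 292 CPM (log2 fold change -8.95 ± 1.94, adjusted p = 0.031). miR-130a-3p was at 0.3 and 1.4 CPM against 89.4 and 30.8 CPM (adjusted p = 0.0181). Both CCK libraries exceeded both VIP libraries for all 4, as for 46.5% of all tested miRNAs. These 4 were tested through the CCK libraries alone, so they had to differ, and their adjusted p-values add no support to that. Without CCK replicate 1 or 2 the calls of miR-34c-5p (0.187 and 0.173), miR-344d-3p (0.199 and 0.173) and miR-130a-3p (0.0837 and 0.0543) were lost. That of miR-130a-3p was also lost under quantile normalization (0.148), and that of miR-34c-5p without VIP replicate 1 or 2 (0.127 and 0.0768). Of the miR-344 family, both tested members were lower in VIP, against 23.4% of all tested miRNAs. Both met the minimum in the CCK libraries alone, so they had to be lower. The other was miR-344d-3-5p, at 0 and 0 CPM against 51.1 and 16.4 CPM (adjusted p = 0.0456). That call was lost without any one library (0.181 to 0.248), under median-ratio scaling (0.0559) and under quantile normalization (0.0612).

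The most abundant miRNAs moved less. miR-125a-5p, a homologue of worm lin-4 that made up 27.9% and 39.4% of the VIP libraries and 18.3% and 18.4% of the CCK libraries, was 1.84-fold higher in VIP (log2 fold change 0.85 ± 0.21, adjusted p = 0.041). The call was lost without VIP replicate 2 (0.068), CCK replicate 1 (0.247) or CCK replicate 2 (0.219), and quantile normalization, under which the top miRNA has the same value in every library, gave a change of 0. miR-26a-5p, expressed in most tissues, was at 56121 and 35874 CPM in VIP against 154431 and 157272 CPM in CCK, 3.39-fold lower (-1.80 ± 0.24, adjusted p = 0.00815). It fell under every scaling tried, and the call was lost without CCK replicate 1 (0.0947) or 2 (0.096). miR-127-3p, the leading miRNA of the Dlk1-Dio3 region, held 23.1% and 17.5% of the VIP and 15.2% and 14.9% of the CCK reads and did not pass (log2 fold change 0.42, adjusted p = 0.136), though it did under median-ratio scaling (1.24, adjusted p = 0.00224). The top 10 miRNAs of each library held 77.4% and 81.1% of its reads in VIP and 74.6% and 74.5% in CCK libraries.

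The lin-4 homologues and the miR-99 and miR-100 family were split. Of 9 tested members 1 was higher and 2 lower, against 8.79% and 23.4% of all tested miRNAs, with a median log2 fold change of -0.92. miR-125b-5p, with the seed of miR-125a-5p, was at 78000 and 63448 CPM in VIP against 107705 and 112421 CPM in CCK and did not pass (log2 fold change -0.65, adjusted p = 0.0668). Its sign turned under median-ratio scaling (0.17) and under quantile normalization (0.71, adjusted p = 0.0426). miR-99a-5p was at 4474 and 5083 CPM against 10750 and 11082 CPM, 2.28-fold lower (adjusted p = 0.0197), and miR-100-5p 1.89-fold lower (adjusted p = 0.027). Both calls were lost under median-ratio scaling (0.352 and 0.771) and without any one library (0.0708 to 0.139 and 0.0624 to 0.132).

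Members of the let-7 family, which promote differentiation in many animals, carry the same seed and did not move together. let-7e-5p was at 22380 and 27030 CPM in VIP against 17191 and 15168 CPM in CCK, 1.53-fold higher (adjusted p = 0.0433). let-7i-5p was at 921 and 993 CPM against 2416 and 2636 CPM, 2.64-fold lower (adjusted p = 0.00815), and let-7d-5p at 2052 and 1903 CPM against 3972 and 4242 CPM, 2.08-fold lower (adjusted p = 0.016). VIP and CCK libraries did not overlap for these 3, as for 68.5% of all tested miRNAs. The other 6 of the 9 tested members did not pass, where 32.2% of all tested miRNAs were called. Among these 6 were let-7b-5p (1973 and 2695 against 7460 and 5967 CPM), let-7c-5p (5149 and 8234 against 19149 and 17401 CPM) and let-7f-5p (51472 and 48685 against 39843 and 37776 CPM). The family's median log2 fold change was -1.05 against -0.75 for all tested miRNAs, while its summed level was near equal, at 98980 and 109400 CPM in VIP and 108900 and 101200 CPM in CCK. Under median-ratio scaling the falls of let-7i-5p (0.1) and let-7d-5p (0.355) were lost and the rise of let-7e-5p was kept (0.00969). Without CCK replicate 2 all 3 calls were lost (0.0591, 0.09 and 0.182 for i, d and e), and without CCK replicate 1 those of let-7d-5p (0.0779) and let-7e-5p (0.139). That of let-7e-5p was also lost without VIP replicate 2 (0.0741).

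The miR-30 family, too, went both ways under one seed. Of 5 tested members 2 were higher and 2 lower in VIP, against 8.79% and 23.4% of all tested miRNAs. miR-30a-5p was at 11692 and 8334 CPM in VIP against 4816 and 4412 CPM in CCK, 2.17-fold higher (adjusted p = 0.0205), and miR-30d-5p at 16180 and 13773 CPM against 9441 and 10010 CPM, 1.54-fold higher (adjusted p = 0.0412). AVP libraries held 9901 and 11000 CPM of miR-30a-5p and 23264 and 19994 CPM of miR-30d-5p. VIP against AVP passed for neither (limma adjusted p = 0.803 and 0.0554). miR-30c-5p was at 2394 and 1235 CPM against 6870 and 7619 CPM, 3.99-fold lower (adjusted p = 0.0259), and miR-30e-5p at 2252 and 1354 CPM against 3533 and 4903 CPM, 2.34-fold lower (adjusted p = 0.0415). miR-30b-5p, chosen after its values were seen, did not pass at 586 and 153 CPM against 1402 and 984 CPM (adjusted p = 0.121). Both falls were lost under median-ratio scaling (0.0682 for c, 0.286 for e), which kept both rises. All 4 calls were lost without either CCK library (0.131 to 0.222). The adjusted p was 0.0892 for miR-30d-5p without VIP replicate 1, and 0.0846 for miR-30c-5p and 0.113 for miR-30e-5p without VIP replicate 2.

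Of the miR-29 family, miR-29a-3p was higher at 4852 and 4197 CPM in VIP against 2184 and 2204 CPM in CCK, 2.06-fold (log2 fold change 1.04 ± 0.17, adjusted p = 0.0163, lost without CCK replicate 1 at 0.0899 or 2 at 0.09). miR-29c-3p, at 265 and 230 CPM against 34 and 32.8 CPM, did not pass (adjusted p = 0.564). Its VIP and CCK libraries did not overlap, as for 68.5% of all tested miRNAs. It passed in a fit of the VIP and CCK libraries alone (0.0313), without the AVP libraries at 0 and 62.8 CPM. None of the 6 tested members of the miR-181 family passed by limma (adjusted p = 0.0581 for miR-181a-5p, the 1 with an unadjusted p under 0.05), where 32.2% of all tested miRNAs were called. Their median log2 fold change was -0.46. Without overlap, miR-181c-5p was higher in VIP (2229 and 1049 against 518 and 378 CPM) and miR-181a-5p and miR-181b-5p lower. VIP and CCK libraries did not overlap for 68.5% of all tested miRNAs. miR-7a-5p and miR-7b-5p, abundant in hypothalamus and endocrine cells, were both lower in VIP. miR-7a-5p was at 9963 and 11911 CPM against 21617 and 20203 CPM, 1.91-fold lower (adjusted p = 0.0343), and miR-7b-5p at 1726 and 1672 CPM against 3183 and 3790 CPM, 2.05-fold lower (adjusted p = 0.0171). Under median-ratio scaling neither passed (0.801 and 0.429). Without CCK replicate 2 both calls were lost (0.163 and 0.0819), and that of miR-7a-5p also without any other library (0.0772 to 0.199). They were the 2 called of 4 tested hypothalamic and endocrine miRNAs, against 32.2% called among all tested miRNAs.

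The imprinted Dlk1-Dio3 region of chromosome 12, whose many miRNAs are made from the maternal copy, moved in both directions. In the cluster from miR-379 to miR-410, 3 of 39 tested members were higher and 10 lower, shares near the 8.79% and 23.4% of all tested miRNAs, with a median log2 fold change of -0.61. The rises were miR-154-3p, miR-376b-5p and miR-541-5p, the last at 9168 and 7305 CPM in VIP against 3869 and 3326 CPM in CCK (2.29-fold, adjusted p = 0.0117). Among the falls, miR-381-3p was at 1119 and 391.5 CPM against 5082 and 4725 CPM (6.49-fold, adjusted p = 0.0182) and miR-485-5p at 471 and 539 CPM against 1489 and 1399 CPM (2.86-fold, adjusted p = 0.0171). The others were miR-409-5p, miR-541-3p, miR-411-3p, miR-376a-3p and, named after their values were seen, miR-300-3p (8.34-fold), miR-323-3p (2.68-fold), miR-485-3p and miR-412-5p. The other miRNAs of the region, some of them antisense to Rtl1, had 0 of 20 higher and 5 lower, with a median log2 fold change of -1.46. These falls were miR-370-3p, miR-433-3p, miR-431-3p, miR-540-5p and miR-1188-5p, and miR-370-3p stood at 560 and 246 CPM in VIP against 5476 and 5201 CPM in CCK (13.2-fold, adjusted p = 0.0043). Of the calls in the region, miR-154-3p was tested through the VIP libraries alone. Tested through the CCK libraries alone were miR-541-3p, miR-376a-3p, miR-485-3p, miR-412-5p, miR-431-3p, miR-540-5p and miR-1188-5p. All of these had to differ. miR-1193-3p, which by position lies in the cluster from miR-379 to miR-410 but was not on that list, was at 48.0 and 10.7 CPM against 433 and 454 CPM (15.1-fold lower, adjusted p = 0.0319).

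The summed level of the second group, most of it miR-127-3p, was 265200 and 198200 CPM in VIP and 189300 and 186000 CPM in CCK, although no member of it was called higher (15 of 20 did not pass). The cluster from miR-379 to miR-410 summed to 26930 and 17710 CPM in VIP and 33330 and 31230 CPM in CCK. Under median-ratio scaling the falls of miR-485-5p (0.148), miR-433-3p (0.082), miR-411-3p (0.0665), miR-300-3p (0.0707), miR-323-3p (0.165), miR-485-3p (0.0568) and miR-412-5p (0.0771) were lost. Without either CCK library the calls of miR-541-5p (0.0629 and 0.0869), miR-381-3p (0.149 and 0.139), miR-370-3p (0.0685 and 0.067) and miR-1193-3p (0.194 and 0.173) were lost. So were those of miR-485-5p (0.124 and 0.107), miR-541-3p (0.124 and 0.121), miR-411-3p (0.199 and 0.163), miR-300-3p (0.219 and 0.196), miR-323-3p (0.117 and 0.139), miR-485-3p (0.202 and 0.162) and miR-412-5p (0.199 and 0.173). That of miR-433-3p was lost without CCK replicate 1 (0.0513). Without VIP replicate 1 the calls of miR-485-5p (0.0616), miR-323-3p (0.0591), miR-485-3p (0.057) and miR-412-5p (0.0591) were lost, and without VIP replicate 2 those of miR-1193-3p (0.0842), miR-485-5p (0.0553), miR-411-3p (0.0769), miR-323-3p (0.0769) and miR-485-3p (0.0923).

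**Figure D4:**
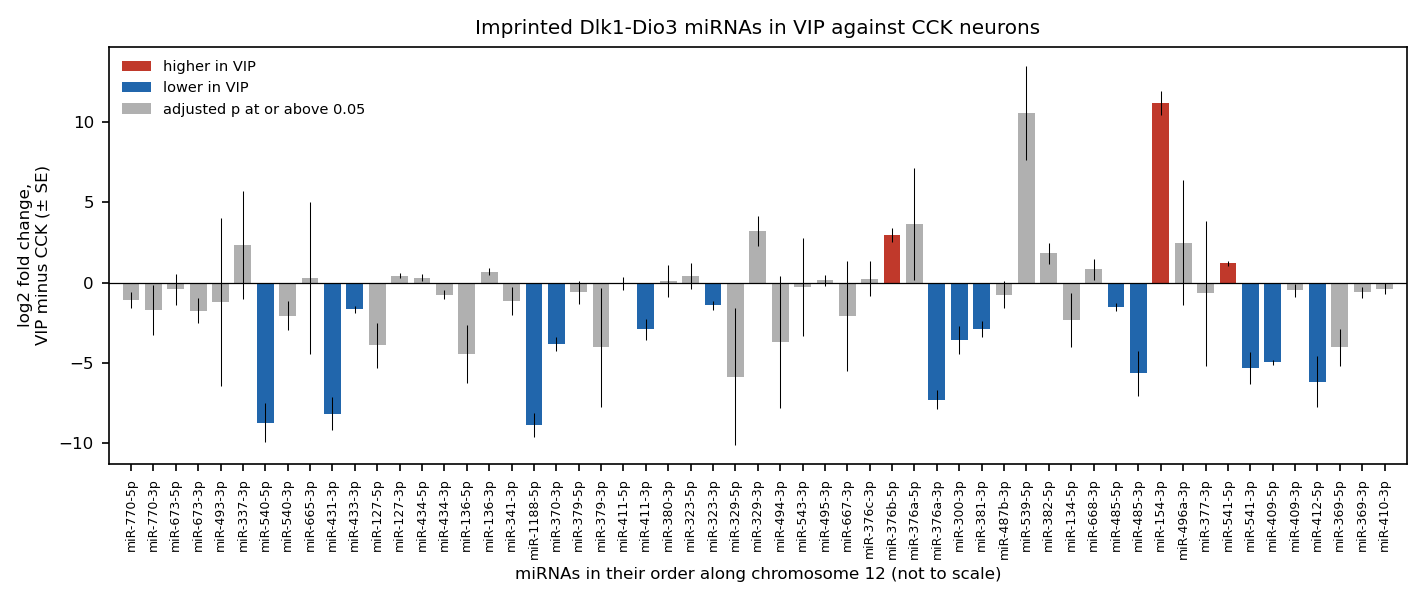
Log2 fold change of each tested Dlk1-Dio3 miRNA in VIP against CCK neurons (bars, with the standard error of the model), in the order of the hairpins along chromosome 12. Red bars are higher in VIP and blue bars lower at an adjusted p under 0.05, and rises and falls lie between each other along the region.

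The arms of 2 hairpins went opposite ways, though both 3p arms were tested through the CCK libraries alone. They thus had to be lower in VIP, and their adjusted p-values add no support to that. miR-541 rose in its 5p arm and fell in its 3p arm, miR-541-3p, which stood at 2.1 and 2.1 CPM in VIP against 72.4 and 105 CPM in CCK (42.2-fold lower, adjusted p = 0.0197, lost under quantile normalization at 0.055). miR-361 did the same, with the 3p arm, miR-361-3p, at 0 and 0 CPM in VIP against 19.1 and 22.5 CPM in CCK, at least 38.8-fold lower (adjusted p = 0.000786).

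The ratio of the 5p to the 3p arm does not depend on how a library is scaled, and it could be tested for 19 hairpins with both arms at 10 CPM or more in all 4 libraries. It differed between VIP and CCK neurons for 6 (31.6%), with a higher 5p share in VIP for 3 (15.8%) and a lower one for 3 (15.8%). miR-409 held 0.246 and 0.5 copies of the 5p arm per copy of the 3p arm in VIP libraries, against 6.43 and 9.62 in CCK libraries (log2 difference -4.49 ± 0.55, adjusted p = 0.00887). The leading arm was thus 3p in VIP and 5p in CCK. The 3p arm itself, at 1252 and 695 CPM in VIP against 1594 and 1072 CPM in CCK, did not pass (adjusted p = 0.431), unlike the 5p arm. miR-9, a brain miRNA with roles in neurogenesis, also led with the 3p arm in VIP and the 5p arm in CCK, with a 5p to 3p ratio of 0.0239 and 0.217 in VIP against 5.40 and 3.06 in CCK (-5.80 ± 1.13, adjusted p = 0.0179). Neither of its arms passed alone, with miR-9-5p at 10.3 and 39.1 CPM against 115 and 214 CPM and miR-9-3p at 430 and 180 CPM against 21.3 and 69.8 CPM.

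miR-411 led with its 5p arm in VIP (ratio 1.98 and 3.51) and with its 3p arm in CCK (0.294 and 0.456, adjusted p = 0.0179). miR-384 kept the 5p arm in the lead in both types, with ratios of 12.6 and 18.1 in VIP against 2.38 and 2.68 in CCK (adjusted p = 0.0179). So did miR-151 (16.2 and 14.9 against 3.57 and 3.58) and miR-212 (10.3 and 22.3 against 143 and 70.7), both at adjusted p = 0.0243. No hairpin passed by limma without CCK replicate 1 or without CCK replicate 2, where the lowest adjusted p was 0.0667 and 0.0826 and 5 hairpins in each fit had an unadjusted p under 0.05. Without VIP replicate 1, miR-212 and miR-151 were lost (0.0739 each), and without VIP replicate 2, miR-151 (0.0687). With both arms at 100 CPM or more in all 4 libraries, 3 of 9 hairpins passed.

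**Figure D5:**
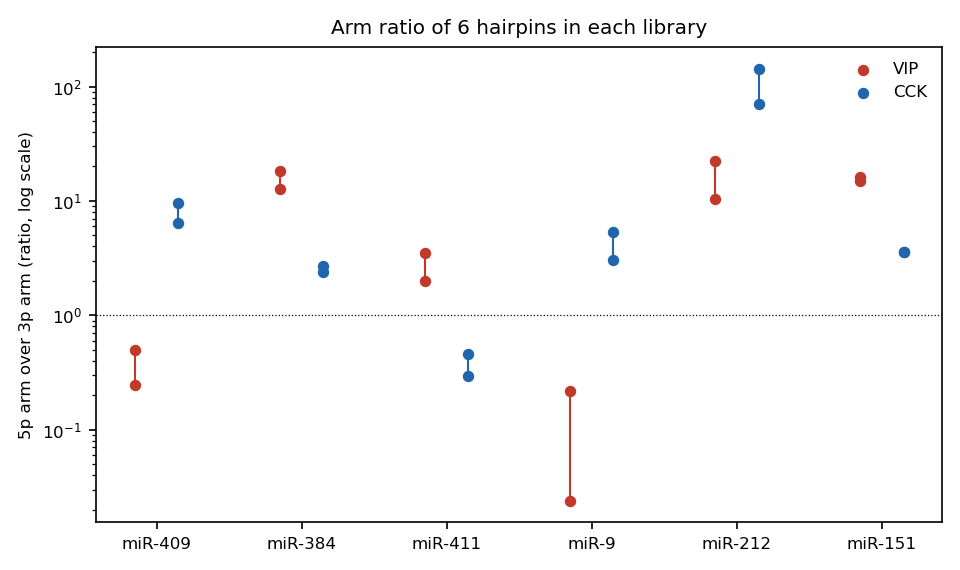
Ratio of the 5p to the 3p arm (log scale) in each VIP (red) and CCK (blue) library for the 6 hairpins whose ratio differed at an adjusted p under 0.05. The dotted line marks equal arms, which miR-409, miR-411 and miR-9 cross between the types.

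Of the miRNAs with reported links to the molecular clock, 2 of 23 tested were higher in VIP and 7 lower, against 8.79% and 23.4% of all tested miRNAs, with a median log2 fold change of -0.70. These shares lie near those of all miRNAs. miR-29a-3p and miR-30a-5p, which like miR-24-3p repress Per1 and Per2 in mouse cells, were the 2 rises, while miR-24-3p was among the falls. The other falls were miR-27b-3p, miR-194-5p, miR-191-5p, miR-433-3p, miR-212-5p and miR-103-3p. miR-191-5p was at 12039 and 15493 CPM in VIP against 22852 and 22847 CPM in CCK, 1.66-fold lower (adjusted p = 0.0379), and its sign turned under median-ratio scaling (log2 0.075, adjusted p = 0.878). miR-103-3p, named after its values were seen, was at 146 and 77.2 CPM against 720 and 538 CPM, 5.64-fold lower (adjusted p = 0.0197). Without CCK replicate 1 or 2 the adjusted p was 0.199 and 0.173 for miR-191-5p and 0.148 and 0.118 for miR-103-3p. It was 0.0591 for miR-191-5p without VIP replicate 1 and 0.068 for miR-103-3p without VIP replicate 2. miR-219-5p, a clock-controlled miRNA of the SCN, was at 0 in all 4 libraries.

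miR-132 and miR-212, made together on chromosome 11 and induced by neuronal activity and, in the mouse SCN, by light, did not move as one. miR-132-3p was at 2916 and 1942 CPM in VIP against 707 and 965 CPM in CCK (log2 fold change 1.53 ± 0.43, adjusted p = 0.0576), and miR-212-3p, with the same seed, at 707 and 344 CPM against 91.6 and 193 CPM (1.89 ± 0.62, adjusted p = 0.08). In both, the VIP libraries lay above the CCK libraries, as for 22% of all tested miRNAs. Neither passed in the main fit, and under median-ratio scaling both passed. miR-212-5p was at 7318 and 7664 CPM against 13138 and 13638 CPM, 1.79-fold lower (adjusted p = 0.0415), a fall lost under median-ratio scaling (0.964) and without any one library (0.132 to 0.206). In the list of activity-regulated miRNAs 0 of 14 tested were higher and 3 lower, against 8.79% and 23.4% of all tested miRNAs, with a median log2 fold change of 0.06. Those 3 were miR-212-5p, miR-381-3p and miR-485-5p.

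Among neuronal brain miRNAs 2 of 20 tested were higher in VIP and 4 lower, again near the 8.79% and 23.4% of all tested miRNAs, with a median log2 fold change of -0.07. The rises were miR-128-3p and miR-135b-5p. miR-129-2-3p, at 48.4 and 19.7 CPM in VIP against 156 and 298 CPM in CCK, fell 6.66-fold (adjusted p = 0.0391), and miR-488-3p, at 28.4 and 21.5 CPM against 262 and 119 CPM, fell 7.64-fold (adjusted p = 0.041). Both falls were lost under median-ratio scaling (0.0776 and 0.097), without CCK replicate 1 (0.131 and 0.199), without CCK replicate 2 (0.182 and 0.107) and without VIP replicate 2 (0.0846 and 0.124). That of miR-488-3p was also lost without VIP replicate 1 (0.101).

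The remaining groups were small, and their counts can be read only against the 32.2% called among all tested miRNAs. In the imprinted Gnas region, miR-298-5p was at 845 and 355 CPM in VIP against 4080 and 3133 CPM in CCK, 6.01-fold lower (adjusted p = 0.0167, lost without CCK replicate 1 at 0.14 or 2 at 0.118), and was the single call among 3. miR-1264-5p, of the cluster in an intron of Htr2c, was at 53.7 and 17.9 CPM against 0 and 0 CPM, at least 11.4-fold higher, while its 3p arm, at 39.5 and 39.8 CPM against 141 and 154 CPM, did not pass (adjusted p = 0.275). In the polycistrons related to miR-17-92, miR-25-5p was the 1 of 5 tested members that passed, at 0 and 0 CPM against 51.1 and 43.1 CPM, at least 87.9-fold lower (adjusted p = 0.000786). Named after their values were seen, miR-335-5p and miR-335-3p, made in an intron of the imprinted gene Mest, were lower in VIP. The 5p arm stood at 572 and 266 CPM against 1948 and 2282 CPM (5.05-fold, adjusted p = 0.0167) and the 3p arm at 197 and 352 CPM against 673 and 733 CPM (2.57-fold, adjusted p = 0.0409). Both calls were lost without CCK replicate 1 (0.124 and 0.187) or 2 (0.132 and 0.182), and that of the 3p arm under median-ratio scaling (0.373). miR-148a likewise fell in both arms, with the 3p arm at 1724 and 1233 CPM against 6053 and 6117 CPM (4.12-fold, adjusted p = 0.0248). That call was lost without any one library (0.0804 to 0.171) and under median-ratio scaling (0.0852). miR-148a-5p was at 0 and 0 CPM in VIP against 29.8 and 26.7 CPM in CCK.

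miRNAs that mark other cells were read in all 4 libraries, and their part in the results above was not tested. The 4 oligodendrocyte miRNAs summed to 1249 and 756 CPM in VIP and 631 and 742 CPM in CCK, all of it from miR-338, with miR-219-5p and miR-219-2-3p at 0 in all 4 libraries, and 0 of 2 tested members passed by limma (0 also at an unadjusted p under 0.05). Of 8 microglial and leukocyte miRNAs, 5 were read. They summed to 7450 and 7950 CPM in VIP and 2254 and 2664 CPM in CCK, nearly all from miR-342-3p, while miR-142-5p and miR-155-5p were at 0 and miR-223-3p and miR-150-5p at 2.0 CPM or less. miR-342-3p was the 1 of 3 tested that passed. Erythrocyte miRNAs summed to 1170 and 943 CPM in VIP and 980 and 1015 CPM in CCK. They were nearly all miR-486-5p, which cannot be told from miR-3107-5p here (entries within 0.31% of each other), and miR-451a was at 16.7 and 12.5 CPM against 0 and 0 CPM, at least 4.66-fold higher (adjusted p = 0.000786).

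Vascular miRNAs summed to 81.3 and 59.5 CPM in VIP and 138 and 177 CPM in CCK, against 3942 and 3916 CPM in whole SCN tissue. By limma 0 of 2 tested passed, with 1 at an unadjusted p under 0.05. Choroid plexus and ciliated-cell miRNAs summed to 9572 and 7635 CPM in VIP and 1557 and 1914 CPM in CCK, nearly all of it miR-204-5p. They were split, with miR-204-5p higher and miR-34b-3p and miR-34c-5p lower among 4 tested, and miR-211-5p at 0 in all 4 libraries. Muscle miRNAs summed to 29.4 CPM or less in any of the 4 libraries, and none met the minimum. The sensory-organ cluster that holds miR-183 summed to 0 and 1.0 CPM in VIP and 8.4 and 22.5 CPM in CCK, against 912 and 999.9 CPM in SCN tissue, and none of its members met the minimum. Liver and gut miRNAs summed to 198.6 and 228 CPM in VIP and 485.6 and 451.8 CPM in CCK. Of these 1 of 3 tested was lower, miR-194-5p, while its relative miR-192-5p, at 194 and 199 CPM in VIP against 364 and 335 CPM in CCK, did not pass (adjusted p = 0.277).

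What the called miRNAs shared beyond their levels was limited. Mature sequences were matched in RefSeq for 238 of the 273. Their median GC content was 46.5% for miRNAs higher in VIP, 47.8% for those lower and 47.6% for the rest, and the median length was 22 bases in each. The first base was U in 10 of 20 higher, 31 of 60 lower and 63 of 158 other miRNAs with a sequence. Among 22 seeds shared by 2 or more tested miRNAs, 13 had a called member. A seed with more members has more chances to hold a call. This count therefore cannot be set against the 32.2% called among all tested miRNAs, and whether it exceeds chance was not tested. The seeds of let-7 (GAGGUAG) and miR-30 (GUAAACA) had members called both ways. Tested miRNAs were also grouped by position where their hairpins were the same or were neighbours within 10 kb. Of the 36 groups with 2 or more tested miRNAs, many held only the arms of the same hairpin. Calls in both directions were found in 3 groups: miR-379 to miR-410, miR-23b with miR-27b, and the miR-361 hairpin.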

How the data were processed

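Small RNA was sequenced from Trizol extracts by Illumina protocols, per the labels. The submitters' processing notes name Bowtie and the builds GRCm38 and mm10, with no settings. The deposited value per miRNA is a signal that the authors scaled to about 10000000 per library and gave in whole numbers, and a miRNA not listed was taken as 0. Dividing by 10 gave CPM. Raw counts were not recovered, so no count-based test was used, and read totals are estimates.

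From there, log2(value + 1) of 273 miRNAs in 6 neuron libraries was fitted with limma-trend (limma 3.58.1, R 4.3.3) by neuron type, with Benjamini-Hochberg adjustment over all 273, two-sided. Fold changes are ratios of mean CPM. Log2 fold changes come from the model, on the log2(value + 1) scale, and can differ from the ratio of means, most where a library is at or near 0 and the pseudocount weighs. Where a type is at 0 in both libraries, a fold is a bound for counting error only, against 3 reads over both libraries of that type. Arm ratios were fitted alike on log2(5p/3p). The fit was tested on simulated data.

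Named were the 15 largest rises and falls with an adjusted p under 0.05, without overlap and with a mean of 50 CPM or more. Also named were the 10 most abundant miRNAs, up to 4 members of each of 24 lists by smallest p, and the 5 leading hairpins, with others said to be chosen later. The members and lists were chosen with earlier results of these data known. Besides those named in the text as chosen after their values were seen, miR-23b-3p, miR-27a-3p, miR-23a-3p, miR-361, miR-541, miR-151, miR-124-3p, let-7b-5p and miR-148a were added for their partners or families. Hairpin positions are from RefSeq (GRCm38.p6), and host genes with their exons and introns from GENCODE M21 (GRCm38).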

Additional observations from a re-analysis of the deposited data

How the results depend on the processing

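Against 88 calls, 24 higher and 64 lower in VIP, median-ratio scaling gave 44 higher and 35 lower, and quantile normalization 36 and 35. No filter gave 25 and 67, a minimum of 100 CPM 21 and 44, and a pseudocount of 10 gave 28 and 71. A minimum of 10 CPM in all 4 libraries, chosen after seeing the data, gave 56 calls, 38 of them lower. Leaving out 1 library gave 33 to 74 calls, 13 to 21 higher and 20 to 57 lower, and 0 to 5 arm ratios. With both arms at 100 CPM or more, 3 arm ratios passed, of which 2 were among the 6 named hairpins. Under quantile normalization miR-125a-5p was at 0 (adjusted p = 1), by construction, as the top miRNA of all 4 libraries, and miR-125b-5p turned to 0.71 (adjusted p = 0.0426). The call of miR-191-5p turned sign under median-ratio scaling (0.075, adjusted p = 0.878), as did, among named miRNAs without a call, miR-99b-5p, miR-181b-5p, miR-409-3p and miR-125b-5p among others. The cause of these was not tested. Deviations of same-numbered replicates had a correlation of 0.0478 between VIP and CCK. With 2 libraries a type, this cannot exclude that replicate numbers pair the samples. A replicate block gave 60 calls, 20 higher and 40 lower, and kept 59 of the 88. Calls lost to the block included miR-27a-3p (adjusted p = 0.0593), miR-541-3p (0.0548), miR-125a-5p (0.0833), let-7e-5p (0.0993), miR-30d-5p (0.0828), miR-7a-5p (0.0511) and miR-1193-3p (0.0571). The arm ratios of miR-212 and miR-151 were lost too (0.0522 each), while 4 passed. Quantile normalization also lost miR-540-5p (0.0612), miR-376a-3p (0.0722) and miR-431-3p (0.0645), among others. The planned tests on recovered reads, edgeR and DESeq2, were not run, since reads could not be recovered. A miRNA at 0 in a CCK library could still have stood at up to 6.39 and 6.16 CPM there by counting error alone.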
